A study of Mus musculus with 6 samples.

Results

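The genes examined here make, break and sense cyclic nucleotides in mouse forebrain, and they were chosen by symbol as the adenylyl and guanylyl cyclases, the cyclic nucleotide phosphodiesterases (PDE), the regulatory and catalytic subunits of the cAMP-dependent protein kinase (PKA) and the alpha and beta subunits of the AMP-activated kinase (AMPK). Of 23282 gene entries in the count tables, 55 carry such a symbol. Male C57BL/6J mice were 8 to 10 weeks old by the study's methods, which name no genetic modification. They received a normal chow diet (NCD) or a high-fat diet (HFD) with 60 kcal% fat for 10 days. Forebrain RNA (no olfactory bulb, no cerebellum) was read from the poly(A) end in 3 NCD and 3 HFD libraries with a QuantSeq kit. The sources used here do not say whether a library came from 1 mouse, so the p-values measure the spread between these libraries.

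Cyclic AMP is made from ATP by adenylyl cyclases, which answer to G proteins, and cyclic GMP from GTP by guanylyl cyclases, which answer to nitric oxide or to peptides. PDE enzymes end both signals by hydrolysis, and each PDE family has its own preference for cAMP or cGMP. When cAMP binds the regulatory subunits of PKA, the catalytic subunits are released and phosphorylate their targets, among them CREB, which binds the cAMP response element in promoters. In the forebrain this pathway is known for its part in synaptic plasticity and in dopamine signaling of the striatum. The symbol rule also took in genes of other function. Pde4dip encodes a centrosomal and Golgi scaffold, Pde12 a mitochondrial RNA exonuclease and Pde6d a binding protein for prenylated proteins. The 4 AMPK members are alpha and beta subunits of a kinase that is regulated by AMP and not by cAMP.

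Prkar1a, which encodes the RI alpha regulatory subunit of PKA, was the most abundant member, and it was the only one of the 45 members with a promoter window in the RefSeq table (GRCm38.p6, 250 bases before to 50 after a start) that held the complete cAMP response element TGACGTCA. The element was in 2 of the 85 windows of these members, or 2.35%, and both hold the same stretch, against 1.79% of all 32851 windows. The shorter TGACG, read on both strands and also part of the longer motif, was in 20 of the 85 windows, or 23.5%, against 20.8% of all windows. The Prkar1a element lies at chr11:109650889-109650918 on the plus strand. The shorter elements shown for comparison belong to other abundant members of each role, namely the regulatory subunit gene Prkar1b at chr5:139150033-139150062 (minus strand), the catalytic subunit gene Prkacb at chr3:146813031-146813060 (minus strand), the cAMP phosphodiesterase gene Pde4b at chr4:102421509-102421538 (plus strand) and the guanylyl cyclase subunit gene Gucy1b3 at chr3:82074722-82074751 (minus strand). Each is written 5′ to 3′ with the motif in capitals, and a match is a description of letters and not evidence of binding.
Prkar1a: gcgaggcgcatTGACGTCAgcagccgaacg
Prkar1b: tagagggcggagTGACGggcaggaggacga
Prkacb: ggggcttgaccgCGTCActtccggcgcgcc
Pde4b: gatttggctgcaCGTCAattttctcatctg
Gucy1b3: tgcggctccactCGTCAttggctgagaaga

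Each library held between 6842785 and 9689372 counts, given below as CPM, the counts of a library scaled to a common total with TMM factors, and a count of 3 corresponds to 0.316 to 0.431 CPM. QuantSeq counts about 1 tag per transcript, so these CPM were not divided by transcript length. Of the 55 members, 43 passed edgeR's count filter, 11 had too few counts for it and Gucy2d had 0 counts in every library. In bulk tissue, fewer cells of a type and less RNA per cell cannot be told apart. HFD replicate 3 stood apart by its pituitary transcripts, with a summed level of 1270 CPM over 9 marker genes against 4.74 to 13.6 CPM in the other libraries. The same library had the lowest sum of 11 hypothalamus markers, 158 CPM against 226 to 269, with 7 counts of Hcrt against 92 to 169 and 60 of Pmch against 264 to 416. At an unadjusted p under 0.05 (edgeR's quasi-likelihood test), 6 of 7 blood markers tested were higher on the HFD, against 1.71% of all genes tested. Of the liver markers, 5 of 6 tested were lower, against 1.98%. Some globin rows had nearly the same counts and may not be separate evidence. In NCD replicate 1, Hbb-bs and Hbb-b1 had 1316 and 1298 counts, and Hbb-bt and Hbb-b2 had 253 and 232. The summed striatal markers lay between 1070 and 1170 CPM in all 6 libraries. The part of these tissue markers in the members' values was not tested. Among the striatal markers, the dopamine receptor gene Drd2 had 1 count over all libraries and Drd1 had between 930 and 1622, so a low count in these tables does not by itself show a low transcript.

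The diets did not differ detectably in any member tested. With edgeR's quasi-likelihood test, 0 of 43 members had an adjusted p under 0.05 (Benjamini-Hochberg over 13771 genes), where 0% of all genes tested passed. At an unadjusted p under 0.05 there were also 0 of 43, against 3.68% of all genes tested, and 0 of 43 past a 1.5-fold change at that p, against 1.28%. With DESeq2 the counts at both thresholds were also 0 of 43. The smallest unadjusted p was 0.0685, for Pde4b. The log2 fold changes ran from -0.50, for Pde4c, to 0.22, for Pde12. Both rest on single libraries in part, since Pde4c gave -0.87 without HFD replicate 2 and -0.27 without HFD replicate 3, and Pde12 gave 0.12 without NCD replicate 2 and 0.33 without NCD replicate 3. In 36 of 43 members, or 83.7%, the log2 fold changes were under 0.2 in size, against 70.7% of all genes tested, which were not matched for level.

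These data bound the change in most members. In 34 of 43, the 95% interval of the fold change lay inside a 1.5-fold change in either direction, against 62.5% of all genes tested. The other 9 were members with mean levels at or under that of Pde12, namely Pde12, Pde4c, Pde7b, Pde8a, Gucy2g, Gucy2e, Adcy8, Adcy7 and Adcy4, and their intervals reached past a 1.5-fold change. Pde5a and Prkab1 were also under that level, with means of 4.89 and 7.96 CPM, but their intervals lay inside. For Adcy1, the interval ran from -0.21 to 0.22 on the log2 scale. That of Prkar1a ran from -0.24 to 0.15. The share of 62.5% comes from genes not matched to the members for level. The median SE (standard error) was 0.13 over the members and 0.16 over all genes tested.

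**Figure D1:**
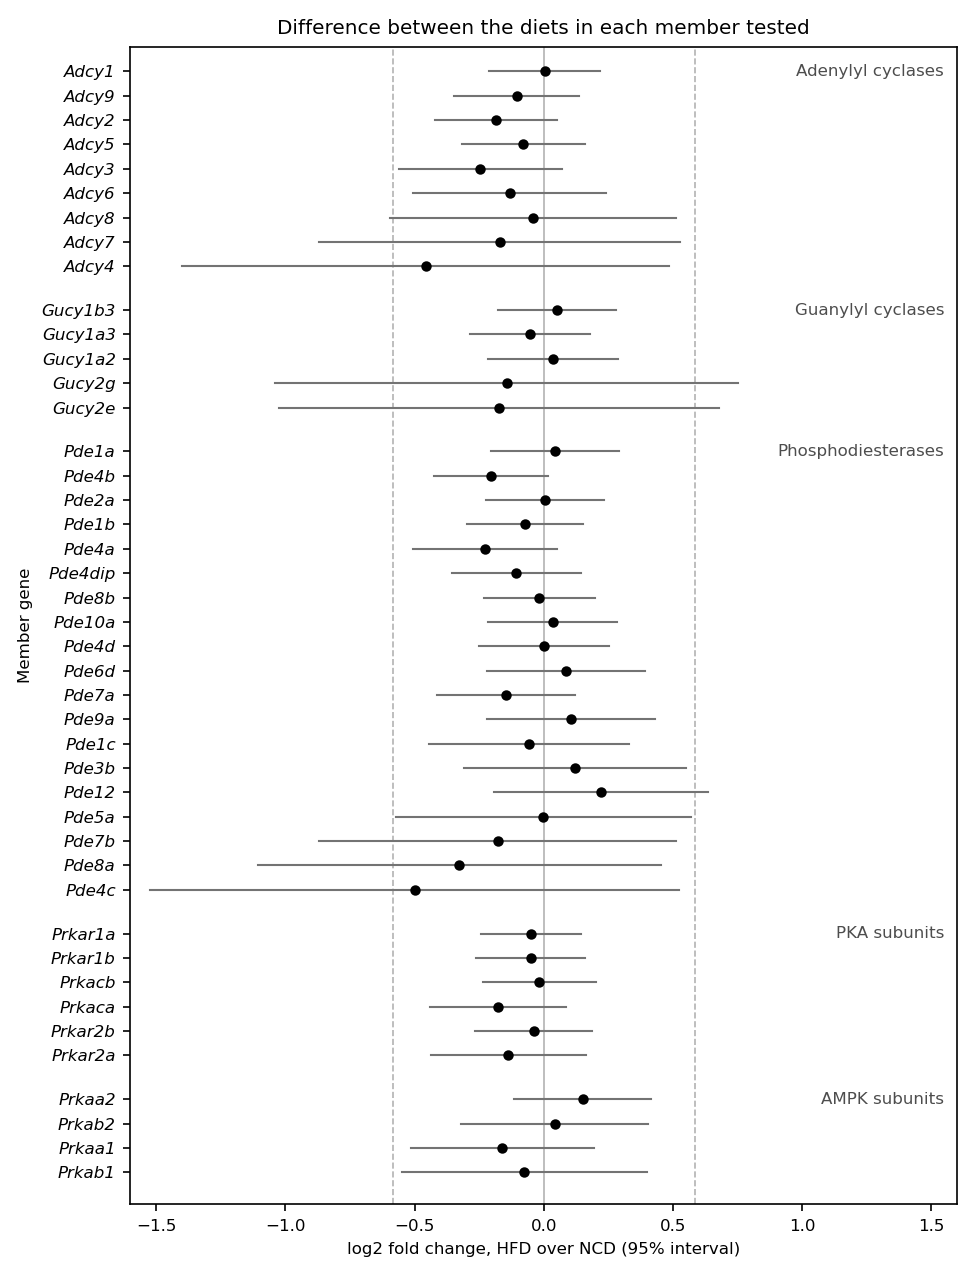
Log2 fold change of each of the 43 members tested (points, HFD over NCD, n = 3 libraries each) with its 95% interval (lines), grouped by role and ordered by level within a group. The dashed lines mark a 1.5-fold change, and 34 of the 43 intervals lie between them while all 43 include 0.

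More members lay below than above 0. The log2 fold change was below 0 in 30 of 43 members, or 69.8%, against 50.6% of all genes tested, and above 0 in 13, against 49.4%, with a median of -0.06 over the members and -0.002 over all genes. This count was 33 with library size alone in place of TMM, where 55.2% of all genes were below 0. It rests in part on NCD replicate 3, without which it was 23 of 43 and the median -0.01. HFD replicate 3, the library with the pituitary transcripts, held the lowest level of the 6 in 22 of the 43 members, or 51.2%, against 27.2% of all genes tested. NCD replicate 3 held the highest in 19, or 44.2%, against 21.4%. Without HFD replicate 3 the log2 fold change was below 0 in 29 of 43 members, with a median of -0.04.

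**Figure D2:**
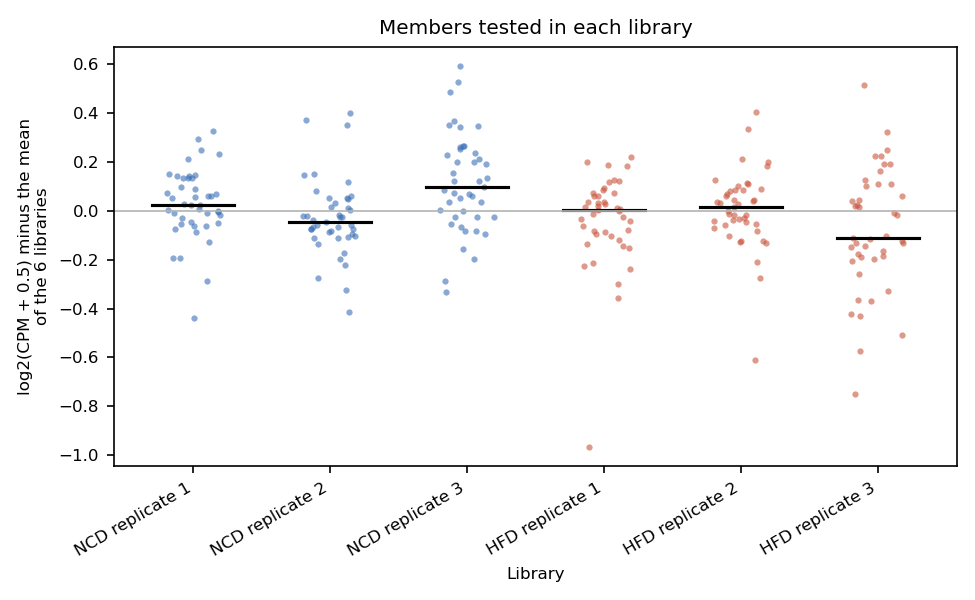
Deviation of each of the 43 members tested from its mean over the 6 libraries, on a log2(CPM + 0.5) scale, with 1 point per member and a black line at the median of each library. The medians run from -0.11 in HFD replicate 3 to 0.09 in NCD replicate 3, and those of the other 4 libraries lie between -0.045 and 0.023.

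Among the 9 transmembrane adenylyl cyclases, Adcy1 was the main transcript. Adcy1 encodes a cyclase stimulated by calcium and calmodulin, and its level was 319, 301 and 331 CPM in NCD replicates 1, 2 and 3 and 346, 313 and 295 CPM in HFD replicates 1, 2 and 3. The gene spans chr11:7063489-7178506 (GRCm38). The diets overlap, with 317 ± 15.3 CPM under NCD and 318 ± 25.8 CPM under HFD (SD, n = 3 each). Its level was between 3.87 and 4.53 times that of Adcy9, the next in order, within a library. Adcy9 averaged 77.9 ± 8.16 CPM under NCD and 72.4 ± 5.07 CPM under HFD (SD, n = 3 each). Adcy5, the cyclase known from the striatum, averaged 66.2 ± 2.53 CPM under NCD and 62.6 ± 5.92 CPM under HFD (SD, n = 3 each). Adcy9 exceeded Adcy2 in 5 of 6 libraries, and Adcy2 exceeded Adcy5 in 6 of 6, by at most 1.22 times, while the ranges over all libraries overlap for both pairs.

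Adcy2, whose product is stimulated by G protein beta-gamma subunits, was the only member tested in which the diets did not overlap. Its level was 70.4, 73.3 and 81.6 CPM under NCD and 69.7, 67.8 and 60.9 CPM under HFD, so that all HFD libraries were lower by a narrow margin. The log2 fold change of -0.18 (standard error, SE, 0.11) had an unadjusted p of 0.118 and an adjusted p of 0.979 in edgeR's quasi-likelihood test. Non-overlap of the diets was found in 1 of 43 members, or 2.33%, against 8.81% of all genes tested. By direction, 0 members were higher (4.31% of all genes) and 1 lower (4.49%). The gene spans chr13:68620043-68999541, and an exon of Gm35161 overlaps it on the other strand.

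Adcy3, the cyclase of neuronal cilia and olfactory neurons, drew 183, 218 and 255 counts under NCD against 146, 209 and 128 under HFD. Its log2 fold change was -0.25 (SE 0.15, unadjusted p of 0.118, edgeR's quasi-likelihood test). An exon of Cenpo overlaps Adcy3 on the other strand, and Cenpo had nearly the same counts, namely 196, 226 and 258 under NCD against 157, 209 and 131 under HFD. The counts of Cenpo and Adcy3 differed by 0 to 13 in a library, so the reads behind Adcy3 cannot be told apart from those of Cenpo. Adcy6, like Adcy5 inhibited by calcium, lay between 14.7 and 21.3 CPM over the 6 libraries. Adcy8, whose product is also stimulated by calmodulin, lay between 4.8 and 7.64 CPM. Adcy7 lay between 2.74 and 5.24 CPM and Adcy4 between 0.823 and 2.37 CPM. The soluble adenylyl cyclase gene Adcy10, whose product responds to bicarbonate, had at most 6 counts in a library and was under the filter. Of the transmembrane cyclases, 8 of 9 had a log2 fold change below 0, against 50.6% of all genes tested, with a median of -0.13. Adcy3, not told apart from Cenpo, is among the 8. All 9 had an unadjusted p of 0.118 or more (edgeR's quasi-likelihood test). Without HFD replicate 3 the log2 fold change was below 0 in 6 of 9.

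**Figure D3:**
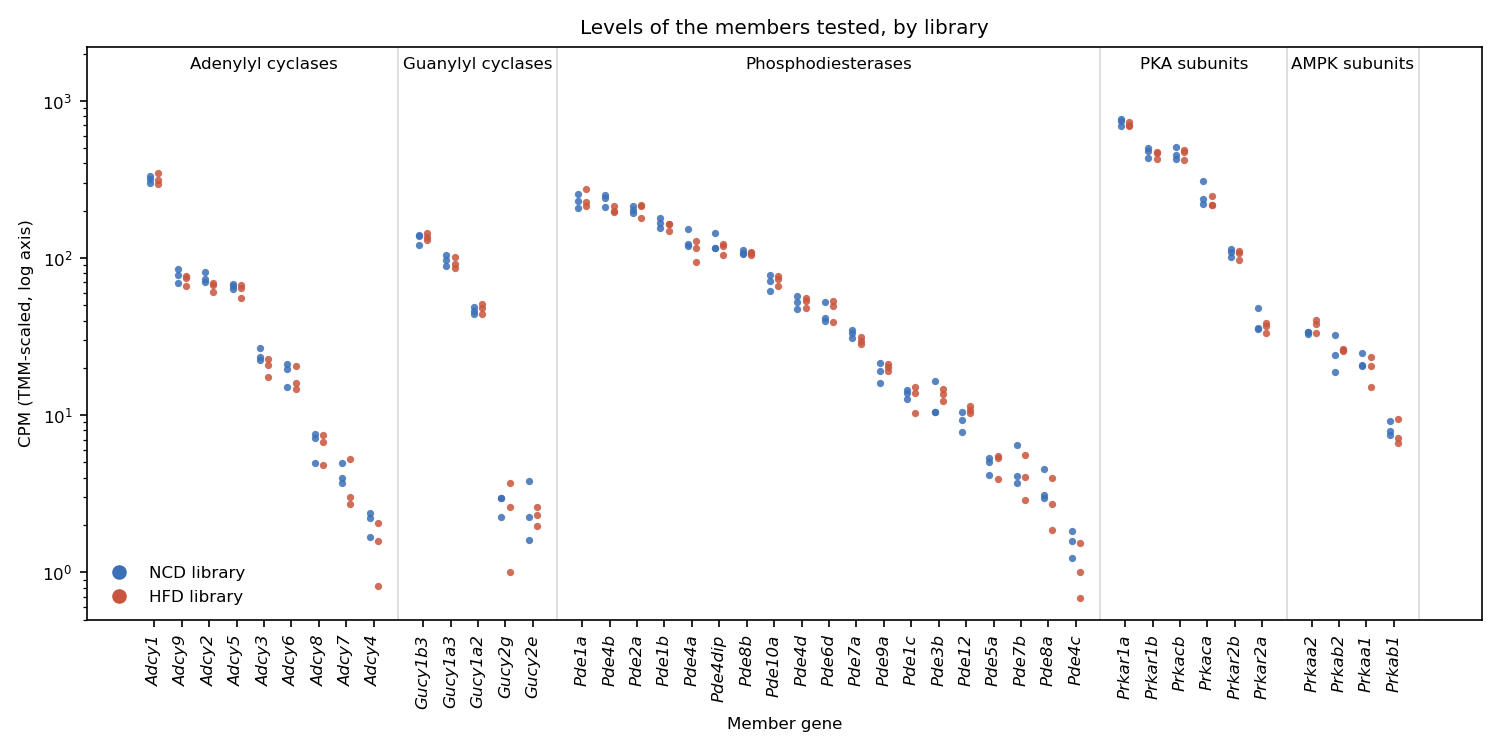
Level of each of the 43 members tested in the 3 NCD and 3 HFD libraries, with 1 point per library and CPM on a log axis, grouped by role. Levels span from 0.686 CPM, for Pde4c in HFD replicate 3, to 767 CPM, for Prkar1a in NCD replicate 3, and the points of the diets overlap in all members but Adcy2.

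The guanylyl cyclases with a Gucy symbol split into abundant subunits of the nitric oxide receptor and membrane receptors near the floor. Gucy1b3 (now Gucy1b1), the beta subunit that carries the heme, had 140, 138 and 121 CPM under NCD and 137, 131 and 145 CPM under HFD. Its alpha partner Gucy1a3 (now Gucy1a1) averaged 96.9 ± 7.69 CPM under NCD and 93.3 ± 7.52 CPM under HFD (SD, n = 3 each). The other alpha subunit, Gucy1a2, averaged 46.5 ± 2.4 CPM under NCD and 47.6 ± 3.61 CPM under HFD (SD, n = 3 each). The ranges of these 3 genes were separate from each other in the 6 libraries, with log2 fold changes from -0.05 to 0.05. Of the membrane cyclases with a Gucy symbol, Gucy2g and Gucy2e passed the filter with 2.58 and 2.42 CPM on average. Gucy2c, the receptor for guanylin, had at most 7 counts in a library, Gucy2f at most 4 and Gucy2d none, and the soluble subunit gene Gucy1b2 had at most 2. The natriuretic peptide receptor genes Npr1 and Npr2 also encode membrane guanylyl cyclases, but the symbol rule left them out. Npr2 averaged 32.8 ± 4.41 CPM under NCD and 26.3 ± 9.03 CPM under HFD (SD, n = 3 each). Npr1 averaged 1.68 ± 0.191 and 1.76 ± 0.318 CPM (SD, n = 3 each).

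Over the 25 genes with a PDE family symbol, Pde6d and Pde12 included, the summed level was 1347 ± 84.5 CPM under NCD and 1300 ± 16.5 CPM under HFD (SD, n = 3 each). This was between 2.16 and 2.49 times the sum of the transmembrane adenylyl cyclases in each library, with 2.28 ± 0.077 (SD, n = 3) on the NCD and 2.3 ± 0.17 (SD, n = 3) on the HFD. Of the PDE genes, 18 were tested, with a median log2 fold change of -0.01.

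The PDE1 enzymes, activated by calcium and calmodulin, and the cAMP-specific PDE4 enzymes held the highest sums. Pde1a had 256, 207 and 229 CPM under NCD and 215, 227 and 273 CPM under HFD, and Pde1b, abundant in the striatum, had 180, 155 and 167 CPM and 164, 149 and 165 CPM. Pde1a exceeded Pde1b in all 6 libraries, by 1.31 to 1.65 times. Pde1c was lower, with 13.7 ± 0.919 CPM under NCD and 13.1 ± 2.49 CPM under HFD (SD, n = 3 each). The log2 fold changes were 0.05 for Pde1a, -0.07 for Pde1b and -0.06 for Pde1c, each smaller than its standard error.

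The lowest p-values of the members tested were those of Pde4b and Pde4a. Pde4b, whose product is a target of rolipram, had 241, 212 and 250 CPM under NCD and 213, 200 and 197 CPM under HFD. HFD replicate 1 lay above NCD replicate 2, so the diets overlap. The gene spans chr4:102087543-102607259. The log2 fold change of Pde4b was -0.20 (SE 0.10, 95% interval from -0.42 to 0.02), with an unadjusted p of 0.0685 and an adjusted p of 0.979 (edgeR's quasi-likelihood test). The unadjusted p was 0.0398 without NCD replicate 2 and 0.034 after quantile normalization with limma, both with an adjusted p of 0.97 or more. Pde4a averaged 131 ± 18.7 CPM under NCD and 112 ± 17.3 CPM under HFD (SD, n = 3 each). Its log2 fold change of -0.23 (SE 0.13) had an unadjusted p of 0.103, which was 0.0331 without HFD replicate 1 (edgeR's quasi-likelihood test, adjusted p of 0.839). Pde4d, by contrast, averaged 52.3 ± 4.61 CPM under NCD and 52.4 ± 3.63 CPM under HFD (SD, n = 3 each), a log2 fold change under 0.001. The difference between Pde4b and Pde4d in their response was not tested. Pde4c had counts between 5 and 17 in a library. Pde4dip, which encodes a PDE4D interacting protein and not a PDE, averaged 125 ± 16.5 CPM under NCD and 116 ± 9.71 CPM under HFD (SD, n = 3 each).

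The enzymes that act on both cyclic nucleotides ranged from abundant to near the floor. Pde2a, which cGMP stimulates, averaged 204 ± 10.1 CPM under NCD and 204 ± 21 CPM under HFD (SD, n = 3 each). Pde10a, which is enriched in the medium spiny neurons of the striatum, had 78.1, 61.9 and 71.3 CPM under NCD and 77.2, 66.2 and 73.2 CPM under HFD. Its libraries of both diets are interleaved, and the log2 fold change was 0.03 (SE 0.12, 95% interval from -0.22 to 0.28). Pde3b, the enzyme through which insulin lowers cAMP in fat and liver, averaged 12.4 ± 3.52 CPM under NCD and 13.6 ± 1.18 CPM under HFD (SD, n = 3 each), a log2 fold change of 0.12 (SE 0.20). This was 0.38 without NCD replicate 2, 0.005 without NCD replicate 3, 0.01 without NCD replicate 1, 0.188 without HFD replicate 2 and 0.059 without HFD replicate 3. Pde3a had at most 5 counts and Pde11a at most 8 counts in a library, and neither passed the filter.

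Of the remaining cAMP-specific enzymes, Pde8b had the smallest spread within diets of the members at 20 CPM or more, with a coefficient of variation of 2.79%. It averaged 108 ± 3.68 CPM under NCD and 107 ± 2.14 CPM under HFD (SD, n = 3 each). Pde8a lay between 1.85 and 4.52 CPM. Pde7a averaged 33 ± 1.96 CPM under NCD and 29.8 ± 1.42 CPM under HFD (SD, n = 3 each), and Pde7b lay between 2.88 and 6.42 CPM. Of the cGMP-specific enzymes, Pde9a averaged 18.9 ± 2.71 CPM under NCD and 20.3 ± 1.03 CPM under HFD (SD, n = 3 each). Pde5a, the target of sildenafil, averaged 4.87 ± 0.61 CPM under NCD and 4.91 ± 0.857 CPM under HFD (SD, n = 3 each). Pde12 averaged 9.25 ± 1.33 CPM under NCD and 10.8 ± 0.55 CPM under HFD (SD, n = 3 each), and an exon of Arf4, with 93.9 ± 2.81 CPM (SD, n = 3) on the NCD, overlaps it on the other strand.

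The PDE6 family, which turns over cGMP in photoreceptors, was near the floor except for Pde6d. Pde6d averaged 44.5 ± 7.16 CPM under NCD and 47.1 ± 7.23 CPM under HFD (SD, n = 3 each). The catalytic subunit genes Pde6a, Pde6b and Pde6c and the rod inhibitory subunit gene Pde6g had at most 11 counts in a library. Pde6h, the inhibitory subunit of cones, had 0 counts in all NCD libraries and 10, 3 and 1 in HFD replicates 1, 2 and 3. It was under the filter, and in the fit without a filter it had an unadjusted p of 0.00329 and an adjusted p of 0.656 (edgeR's quasi-likelihood test). HFD replicates 2 and 3 were at or under the floor of 3 counts, so no fold change is given. Without HFD replicate 1 the unadjusted p was 0.101. Of the 13 marker genes of pineal gland and photoreceptors, whose summed level lay between 12.1 and 15.6 CPM, Crx and Asmt had 0 counts in all libraries, while Sag drew 9, 13 and 16 counts under NCD against 16, 21 and 28 under HFD. An exon of Arhgdib, with 47 to 66 counts in a library, overlaps Pde6h on the other strand.

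The 6 PKA subunits held 45.9% of the CPM of all members. Prkar1a had 692, 749 and 767 CPM under NCD and 693, 706 and 736 CPM under HFD, all HFD values lying within the NCD range. The gene spans chr11:109649405-109669656. Prkar1b, the RI beta subunit of neurons, averaged 471 ± 36.9 CPM under NCD and 455 ± 25.1 CPM under HFD (SD, n = 3 each). An exon of Gm15672 overlaps it on the same strand. The RII subunits were lower, with 108 ± 6.33 CPM under NCD and 105 ± 7.42 CPM under HFD (SD, n = 3 each) for Prkar2b, the main RII form of brain, and 39.7 ± 7.15 CPM (SD, n = 3) and 36.2 ± 2.79 CPM (SD, n = 3) for Prkar2a. The order Prkar1a, Prkar1b, Prkar2b, Prkar2a held in all 6 libraries without overlap of their ranges.

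Of the catalytic subunits, Prkacb exceeded Prkaca in all 6 libraries, by 1.66 to 2.23 times. Prkacb had 455, 426 and 512 CPM under NCD and 484, 470 and 423 CPM under HFD. Prkaca had 239, 222 and 309 CPM under NCD and 217, 247 and 216 CPM under HFD, with NCD replicate 3 the highest. Its log2 fold change of -0.18 (SE 0.12, unadjusted p of 0.172, edgeR's quasi-likelihood test) was -0.02 without NCD replicate 3. The sum of the regulatory transcripts was 1.89 ± 0.15 times that of the catalytic ones (SD, n = 3) on the NCD and 1.91 ± 0.11 times (SD, n = 3) on the HFD. All 6 PKA subunits had a log2 fold change below 0, between -0.18 and -0.02, against 50.6% of all genes tested. This count became 4 of 6 without NCD replicate 3. It was 5 of 6 without NCD replicate 1, HFD replicate 1 or HFD replicate 3 or after quantile normalization.

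The make-up of each class was read as the share of each gene in the class sum. Adcy1 held 53.8%, 53.8% and 53.1% of the transmembrane cyclase CPM under NCD and 56.7%, 54.4% and 56.8% under HFD, so all HFD libraries were higher. Adcy2 held 11.9%, 13.1% and 13.1% under NCD and 11.4%, 11.8% and 11.7% under HFD. The level of Adcy1 itself overlapped between the diets, with 317 ± 15.3 CPM under NCD and 318 ± 25.8 CPM under HFD (SD, n = 3 each). The class sum was 592 ± 32.4 CPM under NCD and 568 ± 45.6 CPM under HFD (SD, n = 3 each). Shares of a class are not independent, since a higher share of a gene lowers the rest. Levels did not overlap in 8.81% of all genes tested, and no such reference was made for shares. The shares of Adcy1 and Adcy2 were the 2 of 30, over 7 classes, in which the diets did not overlap. They were singled out after their values were seen, and 3 libraries against 3 cannot give an exact two-sided permutation p under 0.1.

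**Figure D4:**
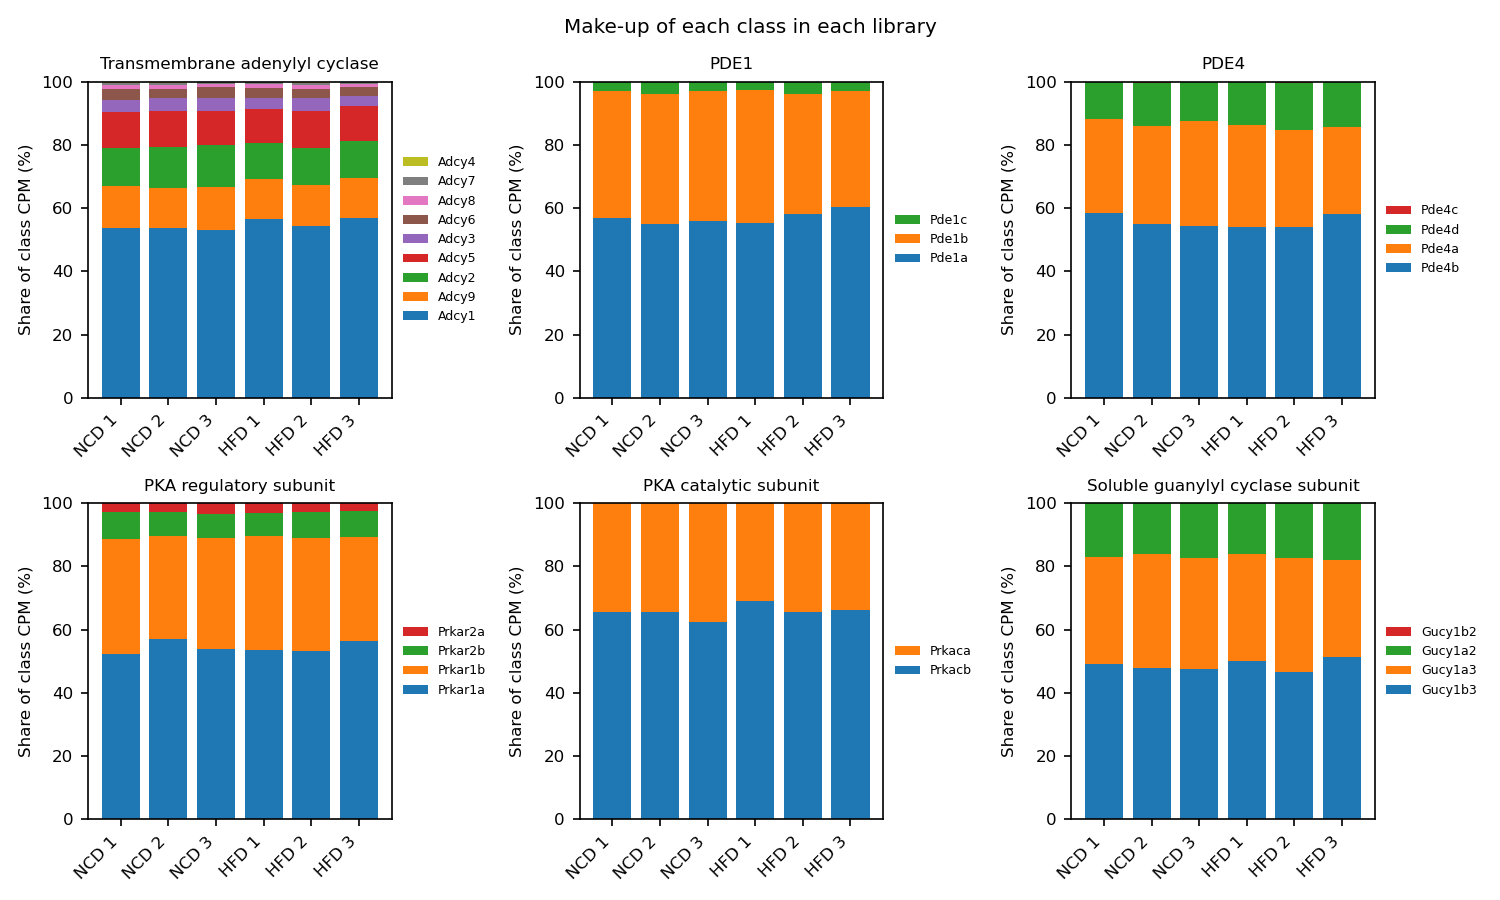
Share of each gene in the summed CPM of its class (percent, stacked bars from 0 to 100) in the 3 NCD and 3 HFD libraries, for 6 classes. Adcy1 makes up between 53.1% and 56.8% of the transmembrane adenylyl cyclases and Prkar1a between 52.3% and 56.9% of the PKA regulatory subunits in every library.

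The AMPK subunits, which the symbol rule included, also gave 0 calls. Prkaa2, the main catalytic alpha subunit of brain, had 33.6, 33.7 and 32.9 CPM under NCD and 33.2, 37.9 and 40.2 CPM under HFD. Its log2 fold change of 0.15 (SE 0.13) had an unadjusted p of 0.246 in edgeR's quasi-likelihood test. The other catalytic subunit gene, Prkaa1, averaged 22 ± 2.35 CPM under NCD and 19.7 ± 4.21 CPM under HFD (SD, n = 3 each). The beta subunit genes Prkab2 and Prkab1 lay between 18.8 and 32.3 CPM and between 6.61 and 9.47 CPM over all libraries.

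The surrounding pathway was read from 11 lists of 96 genes that hold the G proteins, ligands, anchors, effectors and targets of cyclic nucleotides. Of these, 81 were tested, 1 was higher and 4 were lower on the HFD at an unadjusted p under 0.05, and 0 had an adjusted p under 0.05 (edgeR's quasi-likelihood test). Over all genes tested, 1.71% were higher and 1.98% lower at the unadjusted threshold. Upstream, Adcyap1r1, the receptor for the cyclase-activating peptide PACAP, averaged 165 ± 17.4 CPM under NCD and 136 ± 18.9 CPM under HFD (SD, n = 3 each), a log2 fold change of -0.28 (SE 0.12) with an unadjusted p of 0.0363. The p rose to 0.154 without NCD replicate 3, 0.0617 without NCD replicate 2, 0.106 without HFD replicate 3 and 0.0623 with a replicate block. The 6 G protein alpha genes, with Gnas and Gnal among them, gave 0 calls, as did the 3 PKA inhibitor and the 2 cGMP-dependent kinase genes.

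Among the effectors, Hcn3, a channel gated by voltage and cyclic nucleotides, drew 75, 99 and 66 counts under NCD against 36, 60 and 21 under HFD. All HFD libraries were lower, with a log2 fold change of -0.86 (SE 0.29, unadjusted p of 0.00808 and adjusted p of 0.979, edgeR's quasi-likelihood test), and the unadjusted p was 0.0425 or less with each library left out. The CREB coactivator gene Crtc3 drew 154, 175 and 185 counts under NCD against 110, 128 and 76 under HFD, again without overlap in CPM. Its log2 fold change was -0.51 (SE 0.17, unadjusted p of 0.00893 and adjusted p of 0.979, edgeR's quasi-likelihood test), with an unadjusted p of 0.0345 or less with each library left out. Crtc3 was the only call of 8 genes in its list, and Creb1 had a log2 fold change of 0.17 (SE 0.11). Of the 16 CREB-responsive genes, the activity-dependent factor gene Npas4 was the only call, with counts of 13, 22 and 51 under NCD against 13, 11 and 11 under HFD. It rests on NCD replicate 3, without which its log2 fold change went from -1.05 to -0.40 with an unadjusted p of 0.422. The p was also 0.128 without HFD replicate 2, 0.0755 without HFD replicate 3, 0.0701 with the replicate block and 0.078 after quantile normalization with limma, where the log2 fold change was -0.61. The anchoring protein gene Cmya5 was the 1 higher gene, with a log2 fold change of 0.60 (SE 0.25, unadjusted p of 0.0273), and its p was 0.0786 without HFD replicate 2, 0.0556 without HFD replicate 3 and 0.0622 without NCD replicate 3.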

How the data were processed

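The authors trimmed QuantSeq reads, aligned them to mm10 with Bowtie2, counted unique and multiple alignments per gene with bedtools coverage, and deposited raw read counts for 6 libraries. The quantile normalization of the study's methods is not part of the deposited counts. Tool versions, the annotation and the use of strand are not given in the sources used here. Members are symbols that start with Adcy or Pde and a digit, with Gucy, with Prka and a letter a, b, c or r followed by a digit, or with Prkar or Prkac.

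The main test was edgeR 4.0.16 in R 4.3.3 (filterByExpr at min.count 10 and min.total.count 15, TMM, glmQLFit and glmQLFTest without a covariate, Benjamini-Hochberg adjustment over 13771 genes). Standard errors were obtained from the F statistic, and 95% intervals use the t quantile of the fit. DESeq2 1.42.0 and limma 3.58.1 served as alternatives. The fits were checked on simulated counts. No pair of libraries of a diet was alike within sampling noise (chi-square over its degrees of freedom from 3.47 to 16). A floor of 3 counts covers counting error only. Gene places come from GENCODE vM21 (GRCm38), where 15 of 55 members share exon sequence with another gene, and promoter windows from RefSeq. Plots used Python 3.11.15 and matplotlib 3.10.9.

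The members, lists and alternatives were chosen with earlier results of these data known. Members named in the text have an unadjusted p under 0.05, the highest level of a class, 1 of the 10 highest levels, 1 of the 3 highest or lowest fold changes, or diets that do not overlap. The others complete a class. Protein sequences were not used here. The values of 1 marker gene are not reported here.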

Additional observations from a re-analysis of the deposited data

How the results depend on the processing

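The count of members with an adjusted p under 0.05 was 0 in all 15 alternatives (edgeR, DESeq2 or limma). At an unadjusted p under 0.05 it moved from 0 to 1 of 43 after quantile normalization with limma (Pde4b), against 3.71% of all genes tested. With no filter on low counts it was 1 of 54, against 4.76% (Pde6h, also the 1 member then past a 1.5-fold change). It ran from 0 to 1 of 43 with each library left out. It was 1 without NCD replicate 2 (Pde4b), against 4.11% of all genes, and without HFD replicate 1 (Pde4a), against 5.46%. The median log2 fold change of the members ran from -0.111 to -0.014 with each library left out. The counts below 0, over the members, the transmembrane cyclases and the PKA subunits, were chosen after their values were seen. Over the members, the count ran from 23 to 33 of 43 in the alternatives that tested 43. It was 34 of 54 with no filter on low counts and 28 of 40 with at least 10 counts in every library. Over 28 named members and 414 values, 383 kept their direction and their side of an unadjusted p of 0.05. Outside the fits that left out a library, the direction changed with library size alone for Adcy1 (-0.013) and Pde2a (-0.011), and with quantile normalization for Adcy1 (-0.019), Pde2a (-0.013), Prkar1a (0.005) and Pde5a (0.017). For Pde5a it also changed with DESeq2 (0.002) and upper-quartile scaling (0.001). The cause was not tested.

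With each library left out, the log2 fold change ran from -0.06 to 0.055 for Adcy1, -0.26 to 0.946 for Adcy10, -0.014 to 0.091 for Gucy1b3, -0.538 to 0.208 for Gucy2g, -0.05 to 0.115 for Pde10a, -0.063 to 0.126 for Pde1a, -0.045 to 0.089 for Pde2a, -0.163 to 0.009 for Pde4dip, -0.094 to 0.145 for Pde5a, -0.004 to 0.222 for Pde6d, -0.035 to 0.012 for Pde8b and -0.075 to 0.06 for Prkacb. Without a change of direction it ran from -0.869 to -0.27 for Pde4c, -0.794 to -0.178 for Adcy4, -0.644 to -0.077 for Pde8a, 0.005 to 0.382 for Pde3b and 0.118 to 0.329 for Pde12. Over 13771 genes, deviations of same-numbered libraries had correlations of -0.03, 0.052 and -0.057 between the diets, so the numbers were not taken as pairs. The summed A-kinase anchoring genes did follow the number, with 20300, 18300 and 28700 CPM in NCD replicates 1, 2 and 3. They had 22200, 20100 and 30100 CPM in HFD replicates 1, 2 and 3. The summed neuron markers did not, being highest in NCD replicate 3 and lowest in HFD replicate 3. Whether same-numbered libraries were handled together was not tested. With the replicate block, 0 members passed 0.05 by adjusted or by unadjusted p, and the median log2 fold change was -0.071. The 9 members whose intervals reached past a 1.5-fold change had mean levels from 1.31 CPM up to that of Pde12, and the part of depth in this was not tested.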
